A study of Rattus norvegicus with 6 samples.

Results

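Transcript levels of 7 genes that encode feedback inhibitors of receptor tyrosine kinase and Ras signalling were followed in a rat mast cell line: Spry1, Spry2 and Spry4 of the Sprouty family, Spred1, Spred2 and Spred3 of the related Spred family, and Errfi1. The set was chosen with earlier results of these data known. Members were its genes whose array probe set carries exactly 1 gene symbol, with the brightest probe set kept where a gene has several. All 7 were measured, each by 1 probe set, among 14506 named genes on the arrays. RBL-2H3 is a rat basophilic leukaemia line used as a mast cell model. All groups were RBL-2H3 cells that overexpress wild-type Dectin-1, the cell-surface receptor for beta-glucans, so the controls carry the receptor too. The 6 arrays fell into 3 groups of 2. Control cells were not stimulated, curdlan cells were stimulated with the particulate beta-glucan curdlan, and R406 plus curdlan cells were pretreated with R406, an inhibitor of the tyrosine kinase Syk, and then stimulated with curdlan. R406 was not given without curdlan in any of these groups. The doses, the times, the promoter that drives the receptor and whether the line is 1 clone were not stated in the sources at hand.

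Receptors that signal through tyrosine kinases activate the small GTPase Ras, which drives a kinase cascade that ends in ERK. ERK in turn raises transcription of several of its own inhibitors, and Sprouty and Spred proteins are known examples of such feedback. Sprouty proteins bind adaptors and kinases upstream of ERK. Spred proteins recruit the Ras-inactivating protein neurofibromin to the membrane, and Errfi1, also called Mig6, binds and inhibits the kinases of the EGF receptor family. In mast cells the Ras to ERK route is used by the growth factor receptor Kit and by receptors that signal through Syk, such as the IgE receptor and Dectin-1.

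The 250 bases upstream of the annotated start of Spry4, Spred2 and Spred1 are shown because these genes were the members whose levels passed the test below. Sequences are from RefSeq on the build GRCr8 and are written 5′ to 3′ along the strand of the gene, in lower case. Capitals mark matches on either strand to the motifs searched, which were CCGGAA (the core bound by ETS factors), GCGTGGG (bound by EGR factors), TGACGT (the core of the cyclic AMP response element, CRE), TGANTCA (AP-1) and the CArG box bound by SRF. The windows are chr18:30702547-30702796 on the minus strand for Spry4, chr14:98350327-98350576 on the plus strand for Spred2 and chr3:124436980-124437229 on the plus strand for Spred1.
Spry4: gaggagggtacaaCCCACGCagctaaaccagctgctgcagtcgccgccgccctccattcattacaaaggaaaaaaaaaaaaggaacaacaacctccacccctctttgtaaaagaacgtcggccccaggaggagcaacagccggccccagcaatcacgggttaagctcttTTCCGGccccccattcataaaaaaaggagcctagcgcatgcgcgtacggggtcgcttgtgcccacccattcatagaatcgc
Spred2: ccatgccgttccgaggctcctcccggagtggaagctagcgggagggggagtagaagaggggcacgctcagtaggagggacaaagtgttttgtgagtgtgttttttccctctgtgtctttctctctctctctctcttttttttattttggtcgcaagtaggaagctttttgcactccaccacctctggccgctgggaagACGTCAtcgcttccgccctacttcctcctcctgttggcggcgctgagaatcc
Spred1: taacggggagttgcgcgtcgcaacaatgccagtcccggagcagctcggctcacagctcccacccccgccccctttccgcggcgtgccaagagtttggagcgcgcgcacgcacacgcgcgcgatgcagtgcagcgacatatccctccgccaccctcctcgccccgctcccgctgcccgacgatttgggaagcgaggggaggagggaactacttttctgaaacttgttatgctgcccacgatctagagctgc

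All 7 members had an entry, with 8 windows in all because Spry2 has 2 annotated starts, and the search covered 300 bases, of which 50 lie after the start. In Spry4 the reverse complement of the EGR motif began 237 bases and the reverse complement of the ETS motif 81 bases before the start. In Spred2 the reverse complement of the CRE core began 52 bases before the start, and Spred1 held no match. Among the other members, 1 window of Spry2 held the ETS motif, Errfi1 held the EGR motif and the CRE core, and the windows of Spry1 and Spred3 held no match. No 2 matches overlapped. Of all 33469 promoter windows, 15% held the ETS motif, 4.33% the EGR motif, 7.94% the CRE core, 7.33% the AP-1 motif and 1.64% the CArG box. A match is a description of letters and not a bound site.

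The deposited values are log2 signals that the authors normalized, so 1 unit is a 2-fold difference, and each change is the mean of 1 group minus that of the other, with its standard error (SE) from a limma model of all 29214 probe sets. A probe set was called where its Benjamini-Hochberg adjusted p over all probe sets was under 0.05. Array medians lay between 7.204 and 7.241, arrays of 1 group correlated at 0.9975 to 0.9981, and no pair was a duplicate. Separate cultures are not stated for the arrays of a group, so p-values reflect the spread among these particular arrays, which may be only technical. Of 12 measured mast cell markers, 9 lay above the 90th percentile of signal, Kit and the IgE receptor genes Fcer1a and Ms4a2 among them. The tryptase genes Tpsab1 and Tpsb2 lay at the 28.9th and 31.6th percentiles. Of the markers of macrophages (8), lymphocytes (6) and fibroblasts and epithelia (8), 0 lay above the 90th percentile, while 2, 0 and 3 lay above the median signal. Itgam, a macrophage marker, was the highest of these markers, at the 80.9th percentile. It alone of them was called, lower by a change of -0.36 ± 0.066 under R406 against curdlan (limma adjusted p = 0.0408), and its part in the results was not tested. Mast cell markers had 0 calls by limma, with 5, 2 and 3 at an unadjusted p under 0.05 in the 3 contrasts. The single probe set of Clec7a, the gene of Dectin-1, gave 6.94 to 7.23 over the 6 arrays, near the array medians and at the 48.8th percentile. The labelled overexpression is therefore not visible at this probe set, and whether it reads the introduced transcript is not known. Neither Clec7a nor Syk was called in any contrast.

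Each result was recomputed in up to 14 other settings. For a given contrast these hold 12 distinct fits, because leaving out either array of the group outside the contrast gives the same fit as using only the 4 arrays compared. For Spry1, Spry2 and Errfi1, which lay under a filter on low signal, there are 11.

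The first comparison asked whether stimulation of Dectin-1 changed the inhibitors. With curdlan, 0 of the 7 members were called by limma, and 0 had an unadjusted p under 0.05. Over all probe sets 1.59% were called in this contrast, 1.04% as higher and 0.551% as lower. In a fit of 1 probe set for each of the 14506 named genes, 653 were called. The median change of the members was -0.03, against -0.011 over all probe sets, and their changes ran from -0.08 to 0.10.

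**Figure D1:**
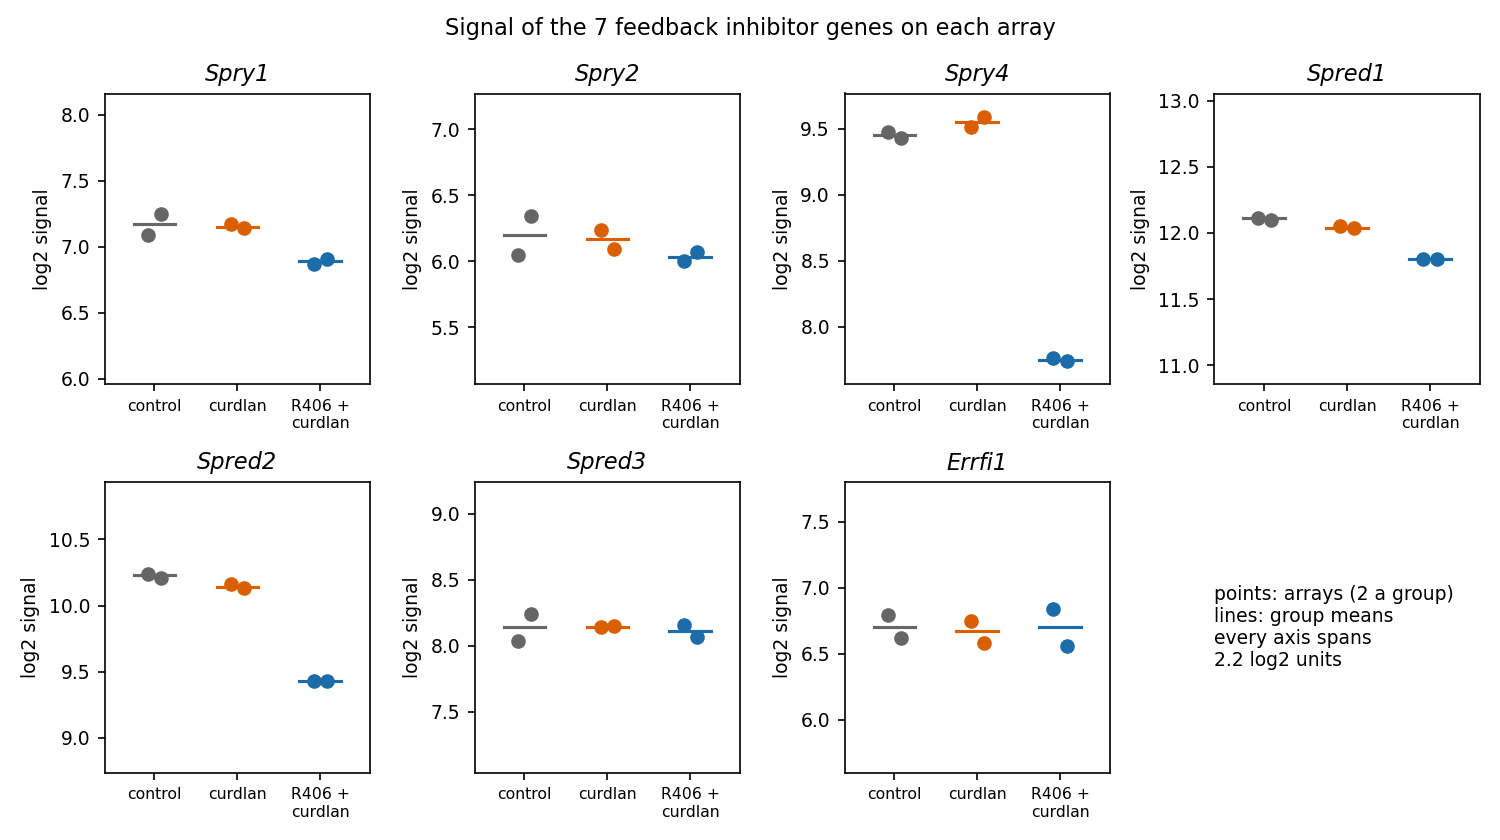
Signal of each member on the 6 arrays, in log2 units, with control in grey, curdlan in orange and R406 plus curdlan in blue; points are arrays, lines are means of 2 arrays, and all panels span the same number of log2 units. The R406 plus curdlan arrays sit at 7.74 and 7.76 for Spry4 and at 9.43 for Spred2, below the other 4 arrays, while the curdlan arrays stay near control for every member.

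Spry4, a Sprouty protein that acts on the Ras to ERK route, had log2 signals of 9.47 and 9.43 in control and 9.51 and 9.59 in curdlan arrays. Both curdlan arrays were above both control arrays, by a margin that did not pass the test. Its change was 0.10 ± 0.051 (SE, limma, Benjamini-Hochberg adjusted p = 0.489). The 95% interval, from the spread among these arrays, ran from -0.04 to 0.23, and its upper end is a 1.17-fold rise. Spred2 had signals of 10.24 and 10.21 in control and 10.16 and 10.13 in curdlan arrays, a change of -0.08 ± 0.044 (limma adjusted p = 0.485). Spred1 had signals of 12.11 and 12.10 in control and 12.05 and 12.04 in curdlan arrays, a change of -0.06 ± 0.043 (limma adjusted p = 0.579). For both Spred genes the curdlan arrays lay below the control arrays. These 3 were the members whose curdlan and control arrays did not overlap, and 43.1% of all probe sets had groups that did not overlap.

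In the remaining members the curdlan and control arrays overlapped. Spry1 had a change of -0.02 (95% interval -0.19 to 0.16), Spry2 of -0.03 (-0.32 to 0.25), Spred3 of 0.00 (-0.21 to 0.20) and Errfi1 of -0.04 (-0.35 to 0.28). The widest of these intervals, that of Errfi1, runs from a 1.27-fold fall to a 1.21-fold rise.

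The next comparison set R406 plus curdlan against curdlan alone and asked how pretreatment with the Syk inhibitor altered the levels. Here 3 of the 7 members fell, Spry4, Spred2 and Spred1, and 0 rose by limma, with 4 members at an unadjusted p under 0.05. Over all probe sets 7.25% were called, 3.23% as lower and 4.02% as higher. Many probe sets have no gene name, whereas every member does. In the fit of 1 probe set for each of the 14506 named genes, 1990 were called, 839 as lower and 1151 as higher. The median change of the members was -0.24, against -0.002 over all probe sets. This contrast cannot separate a blocked curdlan response from an effect of R406 on cells that were not stimulated, or Syk from other kinases that R406 may inhibit. RNA came from whole cultures, so fewer expressing cells and less RNA per cell cannot be told apart.

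**Figure D2:**
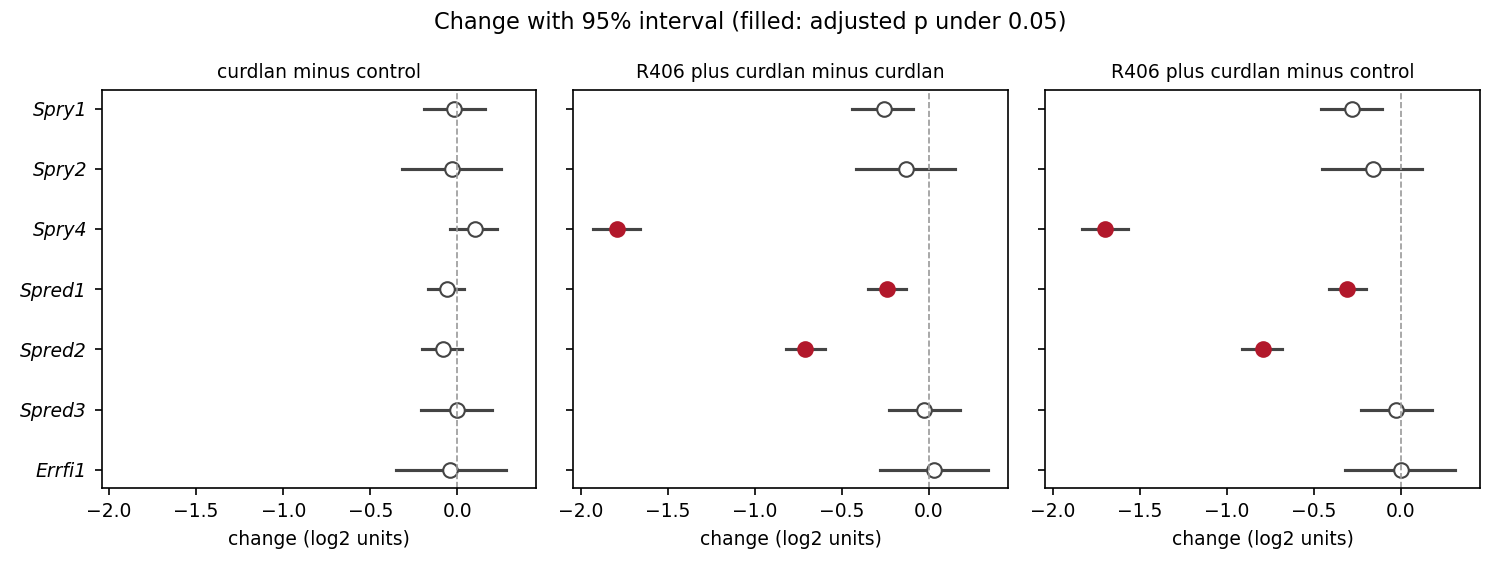
Change of each member in the 3 contrasts, in log2 units, from the fit of all 6 arrays; points are differences of group means, bars are 95% intervals, and filled points have an adjusted p under 0.05. Spry4, Spred2 and Spred1 are filled in both contrasts that involve R406, at -1.79, -0.71 and -0.24 against curdlan, and no member is filled in the curdlan contrast.

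Spry4 had log2 signals of 7.76 and 7.74 in the R406 plus curdlan arrays, against 9.51 and 9.59 with curdlan alone. Both R406 arrays lay far below the other 4 arrays. The gene fell by 1.79 ± 0.051 log2 units (SE, limma adjusted p = 0.000346), which is 3.47-fold with a 95% interval from 3.17 to 3.8. It had the 34th lowest change of the 29214 probe sets, and it was called in each of the 12 other distinct fits, with adjusted p between 9.09e-07 and 0.0115.

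Spred2, which encodes a membrane-bound inhibitor of Ras activation, had signals of 9.43 on both R406 plus curdlan arrays, against 10.16 and 10.13 with curdlan. The groups did not overlap, and the gene fell by 0.71 ± 0.044 (SE, limma adjusted p = 0.00287), a 1.64-fold fall with a 95% interval from 1.51 to 1.77. It too was called in all 12 other distinct fits, with adjusted p up to 0.0453. Its change was the 260th lowest.

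Spred1, the relative of Spred2 whose human counterpart is mutated in Legius syndrome, had signals of 11.80 on both R406 plus curdlan arrays, against 12.05 and 12.04 with curdlan. The gene fell by 0.24 ± 0.043 (SE, limma adjusted p = 0.0373), a 1.18-fold fall, and the groups did not overlap. The call was lost in 7 of the 12 other distinct fits, among them each of the 4 without a curdlan or R406 plus curdlan array (limma adjusted p from 0.127 to 0.212), that with arrays centred on their median (0.0534) and that of only the 4 arrays compared (0.0734). The change itself stayed between -0.25 and -0.22.

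Spry1 had signals of 6.87 and 6.91 in the R406 plus curdlan arrays, against 7.17 and 7.14 with curdlan. The R406 arrays were the lowest of the 6, but the change of -0.26 ± 0.069 did not pass (limma adjusted p = 0.0982), and it passed in none of the 11 other distinct fits in which it was tested. The value is of the size of that of Spred1, and its SE is larger. Spry2 had signals of 6.0 and 6.07 against 6.24 and 6.09, a change of -0.13 ± 0.111 (limma adjusted p = 0.558) with a 95% interval from -0.42 to 0.15. Spred3 had signals of 8.16 and 8.07 against 8.14 and 8.15, a change of -0.03 ± 0.081 (limma adjusted p = 0.881). Errfi1 had signals of 6.84 and 6.56 against 6.75 and 6.58, a change of 0.03 ± 0.122 (limma adjusted p = 0.912). In Spred3 and Errfi1 the groups overlapped. In all, 5 members had groups that did not overlap, and 53.3% of all probe sets did so in this contrast.

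Spry1, Spry2 and Errfi1 had mean signals at the 47.7th, 28.8th and 40.5th percentiles of all probe sets, and the SEs of their changes ran from 0.069 to 0.122. The SEs of the other 4 members ran from 0.043 to 0.081. No detection call was used here, so it is not known whether these 3 probe sets were above background.

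The third comparison set R406 plus curdlan against unstimulated control, which asked whether levels with both agents differed from the starting level. The same 3 members fell and 0 rose by limma, with 4 at an unadjusted p under 0.05. Over all probe sets 2.23% were called, 0.791% as lower and 1.44% as higher. In the fit of 1 probe set for each of the 14506 named genes, 1064 were called, 421 as lower and 643 as higher. The R406 plus curdlan arrays are the same as in the comparison before it, so the results are not independent. Spry4 fell by 1.70 ± 0.051 below control (SE, limma adjusted p = 0.000987), a 3.25-fold fall with a 95% interval from 2.97 to 3.56. This was the 9th lowest change of the 29214 probe sets, and it was called in all 12 other distinct fits, with adjusted p up to 0.0316. Spry4 therefore ended below the level of cells that had received neither agent.

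Spred2 fell by 0.79 ± 0.044 below control (SE, limma adjusted p = 0.00681), a 1.73-fold fall and the 54th lowest change. Without control replicate 1 or 2 its limma adjusted p was 0.0768 and 0.08, and without R406 plus curdlan replicate 1 or 2 it was 0.0926 and 0.0991, so the call was lost in these 4 fits. The change lay between -0.83 and -0.77 in all settings. Spred1 fell by 0.31 ± 0.043 (SE, limma adjusted p = 0.0398), a 1.24-fold fall, and lost its call in 7 of the 12 other distinct fits, among them each of the 4 without a control or R406 plus curdlan array (limma adjusted p from 0.134 to 0.253), that with arrays centred on their median (0.0514) and that of only the 4 arrays compared (0.0894). Without any 1 of the control or R406 plus curdlan arrays, Spry4 alone of the 7 members was called in this contrast.

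Spry1 had a change of -0.28 ± 0.069 against control (limma adjusted p = 0.118) and Spry2 of -0.16 ± 0.111 (adjusted p = 0.467). Spred3 at -0.03 ± 0.081 (limma adjusted p = 0.876) and Errfi1 at 0.00 ± 0.122 (limma adjusted p = 0.99) had intervals from -0.23 to 0.18 and from -0.32 to 0.31. In 4 members the groups did not overlap, and 53.5% of all probe sets did so in this contrast. Set in order, the levels of Spry4, Spred2 and Spred1 were lowest with R406 plus curdlan, and their control and curdlan levels did not differ beyond the test. The other 4 members had no neighbouring levels that differed beyond the test.

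**Figure D3:**
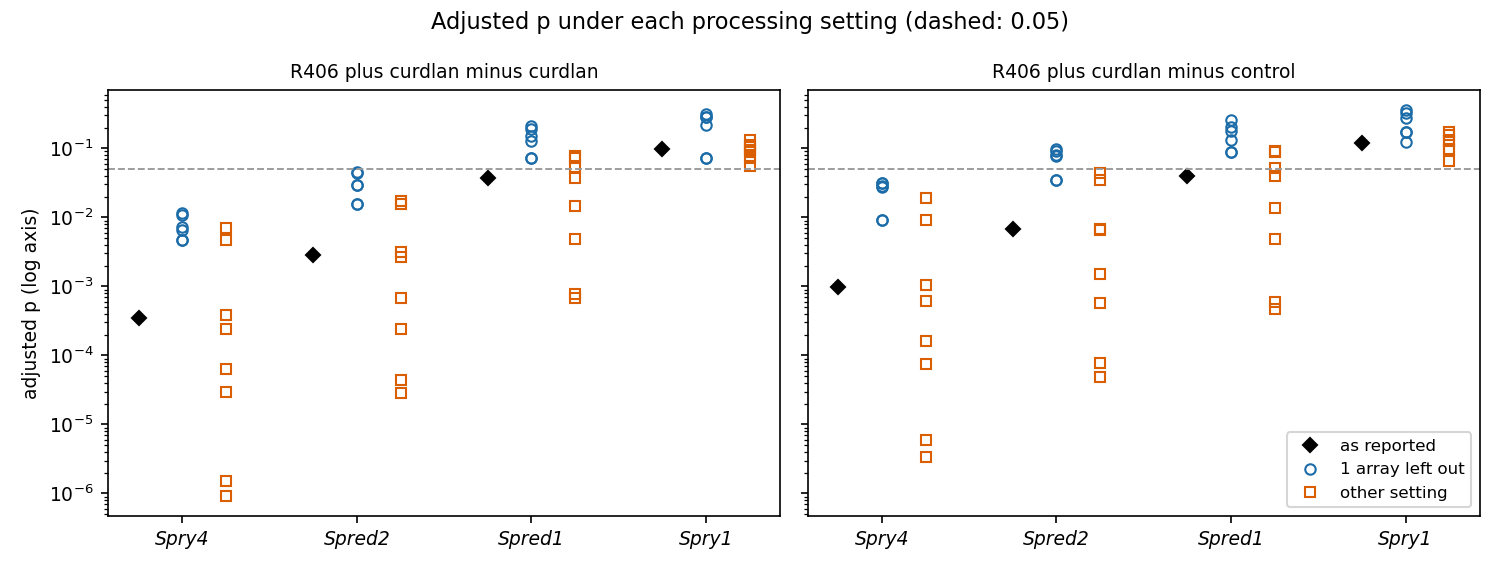
Adjusted p of Spry4, Spred2, Spred1 and Spry1 on a log axis, for R406 plus curdlan against curdlan (left) and against control (right); the diamond is the value as reported, circles are fits with 1 array left out, squares are other settings, and the dashed line is 0.05. All symbols of Spry4 lie below the line, Spred1 has symbols on both sides of it in both contrasts, and Spry1 stays above it.

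Sprouty and Spred genes are known targets of ERK, and other transcripts with that reputation were counted beside them. This list was chosen with earlier results of these data known, so its counts are a description only. Of 21 measured ERK-dependent transcripts, 10 rose and 0 fell with curdlan (median change 0.49), 0 rose and 17 fell under R406 against curdlan (median -1.06), and 1 rose and 11 fell against control (median -0.63). With 1 of the compared arrays left out, 4 rose with curdlan, 12 to 14 fell under R406 against curdlan, and 6 fell against control. With curdlan the largest rises were those of the transcription factor genes Egr3 at 3.23 ± 0.070 and Egr2 at 1.53 ± 0.187, Ier3 at 1.41 ± 0.055 and the ERK phosphatase gene Dusp5 at 1.36 ± 0.056 (limma adjusted p between 0.000547 and 0.0374). Egr2 was called in none of the 4 fits without a control or curdlan array (limma adjusted p from 0.0979 to 0.165). Spry4, Spred1 and Spred2 were thus not called with curdlan while the transcripts named above were. Of the 21 transcripts, 11 were not called with curdlan either, with changes from -0.12 to 0.72. The difference between the genes was not tested.

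Against control, Egr1 fell by 3.78 ± 0.079, the proto-oncogene Myc fell by 3.38 ± 0.081, and the ERK phosphatase genes Dusp6 and Dusp4 fell by 3.34 ± 0.071 and 2.03 ± 0.046 (limma adjusted p between 0.000513 and 0.000583). These 4 and Spry4 were called in this contrast in each of the 4 fits without a control or R406 plus curdlan array.

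**Figure D4:**
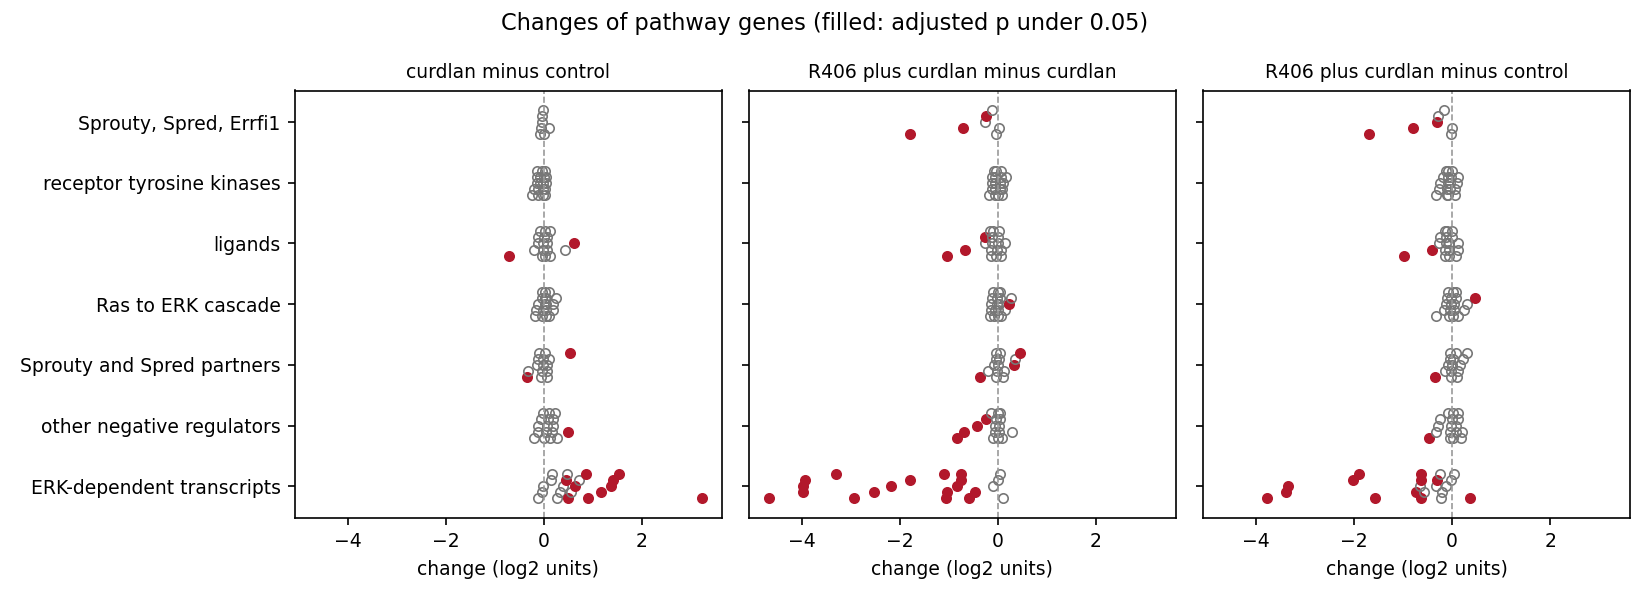
Changes in log2 units of the genes of 7 pathway lists in the 3 contrasts, 1 point per gene, filled where the adjusted p was under 0.05; the vertical spread within a list only separates points. The ERK-dependent transcripts extend from -4.68 to 0.11 under R406 against curdlan, whereas the receptor tyrosine kinases stay between -0.18 and 0.16.

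Of 19 measured receptor tyrosine kinases, 0 were called by limma in any of the 3 contrasts, with 2, 1 and 2 at an unadjusted p under 0.05. Other settings called up to 1 of them, Kit, higher under R406 against curdlan, at 0.16 with a variance trend (limma adjusted p = 0.0445), and 0 in the other contrasts. The targets of Errfi1, chosen here for that role after their values were seen, had control signals of 6.28 for Egfr, 6.61 for Erbb2, 6.23 for Erbb3 and 5.94 for Erbb4, below the array medians. Of 18 measured ligands, Csf1, the macrophage growth factor, rose by 0.61 ± 0.056 with curdlan and fell by 1.03 ± 0.056 under R406 against curdlan (limma adjusted p = 0.0191 and 0.0021). The angiogenic factor gene Vegfa fell by 0.72 ± 0.043 with curdlan and by a further 0.26 ± 0.043 under R406 (limma adjusted p = 0.00591 and 0.0318), and Hbegf, a ligand of the EGF receptor, fell by 0.68 ± 0.104 under R406 (limma adjusted p = 0.0266). Hbegf lay at the 36.0th percentile of signal, and whether its probe set was above background is not known. The calls of Csf1 and Vegfa with curdlan, and of Vegfa and Hbegf under R406, were lost in each of the 4 fits without a compared array, and that of Csf1 under R406 held in all 4. Against control, Vegfa and Csf1 were lower by changes of -0.98 ± 0.043 and -0.41 ± 0.056 (limma adjusted p = 0.00356 and 0.0373). Both calls were lost in each of the 4 fits without a control or R406 plus curdlan array.

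Of 19 measured genes of the Ras to ERK cascade, 0 were called with curdlan by limma (5 at an unadjusted p under 0.05), while other settings called up to 3 higher and up to 1 lower. Sos1 was among those called higher, at 0.24 (limma adjusted p between 0.0102 and 0.0296 where called). Its signals of 9.68 and 9.69 with curdlan alone lay above the 9.44 of both control arrays. Sos1, the exchange factor that loads Ras, was the 1 gene called under R406, higher by 0.22 ± 0.042 than with curdlan and by 0.46 ± 0.042 than in control (limma adjusted p = 0.0465 and 0.0171), and neither call held without any 1 of the arrays compared. Other settings called up to 2 of the list higher and 1 lower against curdlan, and up to 3 higher and 1 lower against control.

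Over all probe sets, 1.59%, 7.25% and 2.23% were called with curdlan, under R406 against curdlan and against control. In the fit of 1 probe set per named gene, 653, 1990 and 1064 of 14506 were called. These shares stand beside the counts of each gene list here. Among 15 measured partners and handlers of the Sprouty and Spred proteins, 1 rose and 1 fell with curdlan. Under R406, 2 rose and 1 fell against curdlan, and 0 rose and 1 fell against control. Other settings called up to 1 higher and 3 lower with curdlan. They called up to 3 higher and 2 lower under R406 against curdlan, and up to 3 higher and 1 lower against control. Tesk1, a kinase known to bind Sprouty proteins, had signals of 11.27 and 11.33 in control, 11.82 and 11.86 in curdlan and 11.46 and 11.48 in R406 plus curdlan arrays. It rose by 0.54 ± 0.050 with curdlan (limma adjusted p = 0.0196) and fell by 0.37 ± 0.050 under R406 (limma adjusted p = 0.0188), and its R406 level lay between the other groups. Siah1, a ubiquitin ligase gene, fell by 0.35 ± 0.044 with curdlan (limma adjusted p = 0.0385) and rose by 0.44 ± 0.044 under R406 (limma adjusted p = 0.00881). The related Siah2 fell by 0.34 ± 0.048 against control (limma adjusted p = 0.0401), and Cblb, which encodes another ubiquitin ligase, rose by 0.32 ± 0.052 under R406 against curdlan (limma adjusted p = 0.0318). The calls of Tesk1 and Siah1 under R406 were lost in each of the 4 fits without a curdlan or R406 plus curdlan array (limma adjusted p from 0.0834 to 0.129 and from 0.0564 to 0.0855). Those of their changes with curdlan, of Siah2 and of Cblb were also lost in each of the 4 fits without a compared array.

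Spry3, the remaining Sprouty gene, named after its values were seen, had signals of 8.83 and 8.75 in control, 8.73 and 8.60 in curdlan and 8.97 and 9.06 in R406 plus curdlan arrays. Its R406 arrays were the highest of the 6, opposite in order to Spry4, but its change of 0.35 ± 0.071 against curdlan did not pass (limma adjusted p = 0.0534). Other settings called up to 3 of the partners higher in this contrast, and whether Spry3 was among them was not examined. Nf1, the gene of neurofibromin through which Spred proteins act, also named after its values were seen, had changes of 0.06 ± 0.074, -0.09 ± 0.074 and -0.03 ± 0.074 in the 3 contrasts (limma adjusted p between 0.545 and 0.861).

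Of 17 other negative regulators of Ras and receptor kinases, 1 rose with curdlan, the adaptor gene Dok1 at 0.50 ± 0.066 (limma adjusted p = 0.0429), and it fell by 0.83 ± 0.066 under R406 (limma adjusted p = 0.00532). Of this list 0 rose and 4 fell under R406 against curdlan, with Rasa2, a Ras GTPase-activating protein gene, at -0.70 ± 0.053, the cytokine signalling inhibitor gene Sh2b3 at -0.42 ± 0.057 and Rasal3 at -0.24 ± 0.046 besides Dok1 (limma adjusted p between 0.00469 and 0.0453). Rasa2 was also lower than in control, at -0.46 ± 0.053 (limma adjusted p = 0.0266). Of the 4 fits without a curdlan or R406 plus curdlan array, the calls under R406 against curdlan held in 3 for Dok1 (limma adjusted p up to 0.0575), 2 for Rasa2 (up to 0.0593), 1 for Sh2b3 (up to 0.126) and 0 for Rasal3 (up to 0.245). The rise of Dok1 with curdlan and the fall of Rasa2 against control were called in 0 of the 4 fits without a compared array. Other settings called up to 4 of this list higher and 1 lower with curdlan. They called up to 1 higher and 4 lower under R406 against curdlan, and 0 higher and up to 4 lower against control.

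The genes with profiles closest to those of the 3 called members were found by the Euclidean distance between log2 profiles over the 6 arrays, each centred on its own mean, among 14499 other named genes. Closest to Spry4 was Ptgs2, the gene of the inducible cyclooxygenase, at a distance of 0.423, followed by the aryl hydrocarbon receptor gene Ahr at 0.680 and the transcription factor gene Klf7 at 0.691. These genes were chosen for likeness to a member over all 6 arrays, which favours changes like those of the member. Their changes are therefore given as a description with no test. Ptgs2 had a change of 0.04 ± 0.055 with curdlan, of -1.41 ± 0.055 under R406 against curdlan and of -1.37 ± 0.055 against control. With curdlan, Ahr and Klf7 had changes of 0.49 ± 0.056 and 0.45 ± 0.055, against 0.10 ± 0.051 for Spry4.

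Closest to Spred2 were P2ry1, a purinergic receptor gene, at 0.126, Zfp639 at 0.136 and the Tec family kinase gene Txk at 0.145. Under R406 against curdlan they had changes of -0.77 ± 0.046, -0.61 ± 0.057 and -0.63 ± 0.076, against -0.71 ± 0.044 for Spred2. Closest to Spred1 were the cytokine signalling inhibitor gene Socs2 at 0.042, Nrp1 at 0.053 and Sema3d at 0.055. Their changes under R406 against curdlan were -0.28 ± 0.044, -0.28 ± 0.046 and -0.26 ± 0.049, against -0.24 ± 0.043 for Spred1. Sema3d lay at the 20.0th percentile of signal, and whether its probe set was above background is not known. The distances describe these 6 arrays, which share 1 cell line and 1 normalization.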

How the data were processed

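Gene expression was measured with Affymetrix arrays on 6 samples of total RNA. The authors deposited a log2 signal for every probe set on each array; the submitters' processing notes name Affymetrix Expression Console as the program. Its version and settings and the genome build were not stated in the sources at hand, and the log base was inferred from the range of the values. The precision is limited by the number of arrays.

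The 29214 probe sets entered a single limma fit of the 3 groups (limma 3.58.1 in R 4.3.3; lmFit, then eBayes, with 3 residual degrees of freedom), with no filter or further normalization, and 3 contrasts were tested. Of the probe sets, 15310 had 1 gene symbol, of which 15279 matched a RefSeq gene ID and took its current symbol, 323 had several and 13581 had none; the last are unnamed here. 0 columns belonged to other samples. The test was first run on simulated data. Members and gene lists were chosen with earlier results of these data known.

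Named genes were all members, Clec7a and Syk, up to 4 called genes of each list and contrast with the largest change, and the 3 closest profiles of each called member. Genes named outside this rule are marked as chosen after their values were seen, or are examples of cell markers. Alternatives were median centring, quantile normalization, a filter on low signals, other variance models, fewer samples or features, the replicate number as a block, and leaving out each array. They were also run, after the data were seen, for the other named genes and the list counts.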

Additional observations from a re-analysis of the deposited data

How the results depend on the processing

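The falls of Spry4 in both R406 contrasts and of Spred2 against curdlan kept their direction and call in all 12 other distinct fits that the 14 other settings give for a contrast. Spred2 against control lost its call in the 4 fits without a compared array, and Spred1 lost its call in 7 distinct fits in each R406 contrast; the cause was not tested. The count of members called stayed at 0 with curdlan in all of them, and with 1 array left out it was 2 under R406 against curdlan and 1 to 2 against control. With 1 array left out an arm holds a single array, which is assumed to vary like the other groups, and 2 residual degrees of freedom remain.

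Over all probe sets, 465 were called with curdlan, 2118 under R406 against curdlan and 652 against control. The filter on the median signal left 14607 probe sets to test, and of these 1572, 3717 and 2278 were called, in that order. With all probe sets the counts were 1557, 3767 and 2341 with a variance trend, 1598, 3812 and 2400 with a robust trend, and 68, 1232 and 182 in the fits of 4 arrays. With the replicate number as a block they were 102, 1129 and 62, and 2 members were called in each R406 contrast, where Spred1 was the member lost, at adjusted p of 0.0763 and 0.0922. Deviations from group means of arrays with the same number correlated at -0.115, -0.005 and 0.113 for the 3 pairs of groups. These values cannot settle whether the numbers pair the arrays, which the labels do not state. With the block the SE of Errfi1 fell from 0.122 to 0.053, and Errfi1 stayed uncalled. With 1 probe set per named gene, 1064 of 14506 were called against control. With 1 array left out the counts ran from 32 to 68, from 210 to 1232 and from 15 to 182, where the highest of each is the fit of only the 4 arrays compared.

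Changes near 0 that took the other sign in some setting were uncalled in all of them. With curdlan and 1 array left out, Errfi1 ran from -0.12 to 0.05, Spred3 from -0.10 to 0.10, Spry1 from -0.10 to 0.07 and Spry2 from -0.17 to 0.11, and median centring gave 0.00 for Spred3. Under R406 against curdlan with 1 array left out, Errfi1 ran from -0.11 to 0.17 and Spred3 from -0.07 to 0.01. Against control with 1 array left out, Errfi1 ran from -0.14 to 0.13 and Spred3 from -0.13 to 0.07, and Errfi1 was 0.02 with median centring and 0.04 after quantile normalization. Spry1, Spry2 and Errfi1 lay under the filter on the median signal and have no value there. No member had another probe set to average.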
